A study of Mus musculus with 6 samples.

Results

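The Nrf2 system and the antioxidant enzymes were followed here through 10 genes: the transcription factor gene *Nfe2l2*, its inhibitor *Keap1*, the inducible targets *Hmox1*, *Nqo1*, *Gclc* and *Gclm*, the superoxide dismutases *Sod1*, *Sod2* and *Sod3*, and the catalase gene *Cat*. They were taken by gene symbol from the 54525 gene rows of the count files, and each symbol matched 1 row. RNA-seq of total RNA was performed on C2C12 cells, an established mouse line of myoblasts that fuse into multinucleated myotubes. The libraries fall into 3 of proliferating myoblasts (D0) and 3 of myotubes after 5 days of differentiation (D5). Every library was labelled wild type (WT) with no treatment, and all carry the same myoblast cell type label. Growth medium held fetal bovine serum and differentiation medium held less serum, from horse, so differentiation and the change of serum cannot be told apart. No source names separate cultures beyond n = 3, so p-values measure the spread between these libraries, which may be technical.

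Nrf2, the protein of *Nfe2l2*, is a transcription factor that is held in check by KEAP1, the adaptor of an E3 ubiquitin ligase that marks it for degradation. Electrophiles and oxidants modify cysteines of KEAP1. Nrf2 then escapes degradation, enters the nucleus and binds, with a small Maf protein, to antioxidant response elements near genes of glutathione synthesis, NADPH supply, quinone reduction and heme breakdown. Because this control acts largely on the protein, transcript levels of *Nfe2l2* and *Keap1* do not measure Nrf2 activity. Superoxide dismutases turn superoxide into hydrogen peroxide in the cytosol (SOD1), the mitochondrial matrix (SOD2) and the extracellular space (SOD3), and catalase breaks hydrogen peroxide down in peroxisomes. In muscle, mitochondria and NADPH oxidases are known sources of superoxide.

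Promoter sequences show whether the letters of the antioxidant response element lie close to these genes. The 250 bases before the transcription start were read from RefSeq on GRCm38.p6, where 7 of the 10 genes had an entry; *Hmox1*, *Gclc* and *Sod3* had none. The core of the element was searched as TGACNNNGC on either strand (GCNNNGTCA read in reverse), and 3 of the 7 windows held 1 match each: *Nfe2l2*, *Gclm* and *Sod1*. Of all 32851 windows of the same length 10.2% held it, which is 11.5% of the 27025 genes in the table. The 3 windows with a match are printed 5′ to 3′ on the strand of the gene, with the match in capitals. They are chr2:75704664-75704913 on the minus strand for *Nfe2l2*, chr3:122245307-122245556 on the plus strand for *Gclm* and chr16:90220512-90220761 on the plus strand for *Sod1*.
*Nfe2l2*: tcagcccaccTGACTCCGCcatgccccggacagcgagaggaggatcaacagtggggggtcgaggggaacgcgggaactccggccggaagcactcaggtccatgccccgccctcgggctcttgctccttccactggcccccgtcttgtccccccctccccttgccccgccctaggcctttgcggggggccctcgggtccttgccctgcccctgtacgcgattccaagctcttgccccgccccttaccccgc 
*Gclm*: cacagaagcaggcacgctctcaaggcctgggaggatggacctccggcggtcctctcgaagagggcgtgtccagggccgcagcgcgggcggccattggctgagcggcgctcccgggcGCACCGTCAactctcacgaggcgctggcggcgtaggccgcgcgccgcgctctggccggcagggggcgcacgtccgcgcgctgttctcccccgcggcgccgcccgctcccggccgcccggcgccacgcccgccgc 
*Sod1*: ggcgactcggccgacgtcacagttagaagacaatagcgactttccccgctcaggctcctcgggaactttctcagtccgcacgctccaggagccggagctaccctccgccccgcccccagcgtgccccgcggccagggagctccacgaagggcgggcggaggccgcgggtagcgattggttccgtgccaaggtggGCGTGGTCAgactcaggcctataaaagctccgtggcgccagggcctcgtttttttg
In *Nfe2l2* the match TGACTCCGC lies 240 to 232 bases before the start, in the reading direction of the gene. The reverse form stands in the other two, as GCACCGTCA 134 to 126 bases before the start of *Gclm* and as GCGTGGTCA 56 to 48 bases before that of *Sod1*. The GC box GGGCGG, on either strand, was in 7 of the 7 windows and in a window of 35.4% of all genes. This motif holds only G and C, and the GC content of the 7 windows ran from 49.6% (*Keap1*) to 78.4% (*Gclm*), beside a median promoter GC content of 52.4%. The E-box CAGCTG was in 1 of the 7, that of *Keap1*, and in a window of 14.7% of all genes. A match describes these letters only, and elements farther from the start are not covered.

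Depth was 36555048 to 40895840 counts on genes in the D0 libraries and 25449759 to 25811300 in the D5 libraries. Levels are CPM, counts per 1000000 counts on genes, after TMM scaling. The difference between D5 and D0 was tested for each gene with the quasi-likelihood method of edgeR, and p-values were adjusted (Benjamini-Hochberg) over the 16290 genes that passed a filter on low counts, at a threshold of 0.05. The smallest two-sided p of an exact permutation test is 0.1 with 3 libraries a group, and none was run for single genes. The groups matched their labels: 7 of 7 myotube markers were higher at D5, with a summed level of 395 to 416 CPM at D0 and 13583 to 14425 CPM at D5. Lower at D5 were 6 of 6 proliferation genes (1779 to 1791 CPM against 63.7 to 71.6 CPM) and 3 of 3 myoblast markers (339 to 356 CPM against 154 to 160 CPM). Libraries also held 92 ERCC spike-ins, synthetic RNAs added to the samples, which took 0.726% to 0.859% of counts at D0 and 0.720%, 1.20% and 2.09% at D5. The 3 D5 shares were unequal, and scaling to the spike-ins lowered the median log2 fold change of all genes from 0.0022 to -0.58. Unless spike-in scaling is named, levels below are therefore relative to the other gene transcripts of the libraries, by TMM scaling for CPM. In bulk RNA fewer cells of a type and less RNA per cell cannot be told apart.

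The 10 genes split in both directions rather than moving together. At D5, *Nfe2l2*, *Keap1*, *Sod2* and *Sod3* were higher (with *Nfe2l2* and *Keap1* reversed in sign under spike-in scaling), *Gclc*, *Gclm*, *Sod1* and *Cat* were lower, and *Hmox1* and *Nqo1* did not pass the test. All 10 passed the filter, with at least 10 counts in every library. The 4 higher genes compare with 42.2% of all genes tested that were called higher, and the 4 lower genes with 40.8% called lower, so neither count stands far from the background. A change of at least 2-fold was called for *Sod2* and *Sod3* upward, where 19.3% of all genes tested passed, and for *Gclm* downward, where 16.0% passed. Every D5 library lay above every D0 library for 4 genes (42.2% of all genes tested) and below for 4 (41.1%), and the groups overlapped for 2. The median log2 fold change of the 10 genes was -0.086, beside 0.0022 for all genes tested, and the median absolute log2 fold change was 0.56, beside 0.67.

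**Figure D1:**
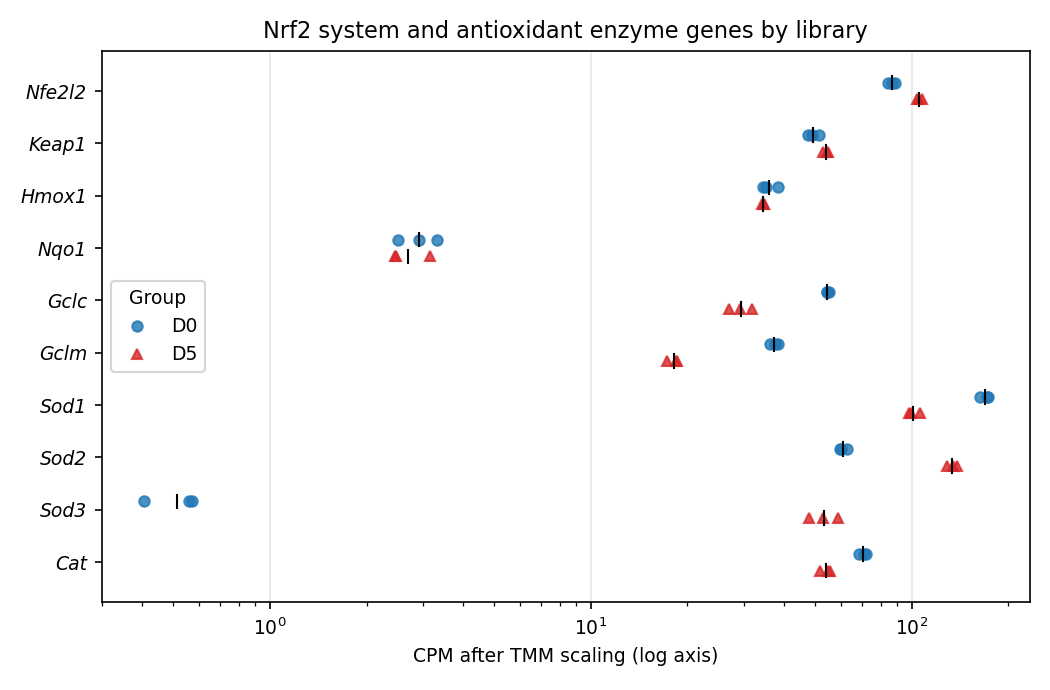
Level of each of the 10 genes in every library, in CPM after TMM scaling on a logarithmic axis. Blue circles are the 3 D0 libraries, red triangles the 3 D5 libraries and black ticks the group means; *Hmox1* and *Nqo1* overlap between groups, while *Sod3* moves from under 1 CPM to about 50 CPM.

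Transcripts of the sensor pair changed little. *Nfe2l2* (ENSMUSG00000015839.6, chromosome 2 of GRCm38 from 75675513 to 75704641, minus strand) gave 3331, 3656 and 3397 counts at D0 and 2708, 2588 and 2575 in the shallower D5 libraries. Scaled to depth these were 88.9, 87.0 and 84.4 CPM at D0 and 108, 105 and 104 CPM at D5. All 3 D5 libraries were above all 3 D0 libraries, by more than the spread within either group. The mean went from 86.7 ± 2.29 CPM to 105 ± 2.19 CPM (n = 3 each, SD), a 1.22-fold difference. Its log2 fold change was 0.28 (SE 0.036, adjusted p = 2.3e-08 in edgeR's test), and it was -0.28 (adjusted p = 0.70) with spike-in scaling, which is above the median of all genes under that scaling. A larger rise was fitted for 38.4% of the genes tested.

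*Keap1* (ENSMUSG00000003308.15, chromosome 9 from 21229730 to 21239361, minus strand), the brake on Nrf2, was at 51.3, 48.8 and 47.5 CPM in the D0 libraries and 53.0, 54.9 and 54.3 CPM in the D5 libraries. The D5 values lay just above the highest D0 value. The log2 fold change was 0.14 (SE 0.042, adjusted p = 0.0042 in edgeR's test). That call was lost with total-count scaling (0.051, adjusted p = 0.26), with no filter on low counts (0.083, adjusted p = 0.12) and without D0 replicate 3 (0.099, adjusted p = 0.052), and the sign turned with spike-in scaling (-0.42, adjusted p = 0.55). A transcript on the opposite strand, *Gm16754*, covers 10.9% of its exonic length, and since the strand setting of the counting is not known, reads of this pair may be mixed. Per library, *Nfe2l2* had 1.76 ± 0.026 times the counts of *Keap1* at D0 and 1.95 ± 0.073 times at D5 (n = 3 each, SD).

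*Hmox1* and *Nqo1*, much used as readouts of Nrf2, were the members with no call. *Hmox1* (ENSMUSG00000005413.8, chromosome 8 from 75093621 to 75100589, plus strand) encodes heme oxygenase 1, which breaks heme down to biliverdin, iron and carbon monoxide. It stood at 38.2, 35.1 and 34.4 CPM at D0 and 34.0, 34.7 and 34.6 CPM at D5. Apart from D0 replicate 1, the libraries lay within about 1 CPM of each other. The log2 fold change was -0.057 (SE 0.048, 95% interval -0.16 to 0.042, adjusted p = 0.27 in edgeR's test), so the interval of the D5 to D0 ratio ran from 0.898 to 1.03. With total-count scaling the same gene passed as lower, at -0.14 (adjusted p = 0.0078).

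*Nqo1* (ENSMUSG00000003849.8, chromosome 8 from 107388225 to 107403206, minus strand) encodes a quinone reductase that uses NADH or NADPH. Its transcripts were few in both states, with 94, 139 and 117 counts at D0 and 79, 61 and 61 at D5. This corresponds to 2.51, 3.31 and 2.91 CPM at D0 and 3.15, 2.48 and 2.45 CPM at D5. The groups interleave, and the log2 fold change was -0.12 (SE 0.15, adjusted p = 0.48 in edgeR's test). At this depth the 95% interval of the ratio, from 0.745 to 1.14, leaves room for a moderate fall or a small rise.

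Both subunits of glutamate-cysteine ligase, the enzyme of the rate-limiting step of glutathione synthesis, were lower in myotubes. *Gclc* (ENSMUSG00000032350.9, chromosome 9 from 77754535 to 77794485, plus strand) encodes the catalytic subunit. It was at 54.3, 54.4 and 55.1 CPM in the D0 libraries and 27.0, 31.8 and 29.1 CPM in the D5 libraries. The groups were far apart and the D5 libraries were the more scattered, with means of 54.6 ± 0.440 and 29.3 ± 2.40 CPM (n = 3 each, SD). D5 reached 53.6% of D0, a log2 fold change of -0.90 (SE 0.049, adjusted p = 1.1e-16 in edgeR's test).

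*Gclm* (ENSMUSG00000028124.15, chromosome 3 from 122245557 to 122270732, plus strand), the modifier subunit that raises the efficiency of the enzyme, was at 36.2, 37.6 and 38.2 CPM at D0 and 17.3, 18.4 and 18.6 CPM at D5. Its D5 level was 48.5% of that at D0 (95% interval 45.0% to 52.2%). The log2 fold change of -1.04 (SE 0.052, adjusted p = 1.0e-17 in edgeR's test) was the largest fall among the 10 genes with TMM scaling. Small parts of its exons overlap *Gm17494* on the opposite strand (4.71% of exonic length) and *Gm6061* on the same strand (3.88%). The count ratio of *Gclc* to *Gclm* was 1.46 ± 0.030 at D0 and 1.62 ± 0.095 at D5 (n = 3 each, SD), and all 3 D5 values lay above the D0 values. Both falls were still called with spike-in scaling, at -1.44 for *Gclc* (adjusted p = 0.023) and -1.61 for *Gclm* (adjusted p = 0.0099).

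**Figure D2:**
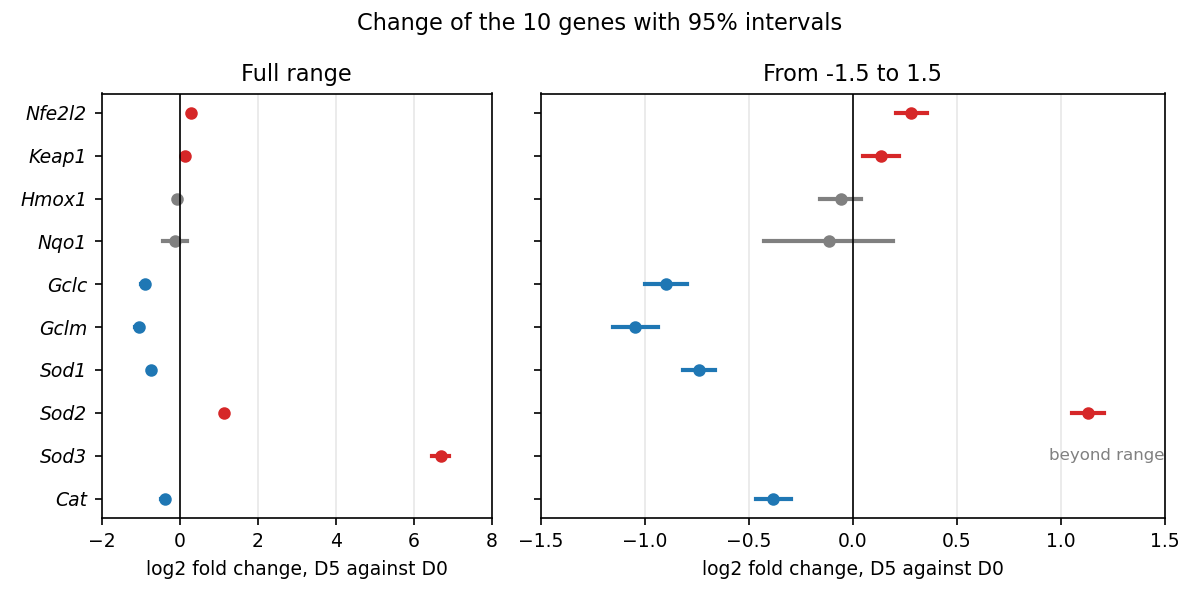
Log2 fold change of D5 against D0 for each of the 10 genes, with 95% intervals from edgeR's fit as horizontal lines; the left panel spans the full range and the right panel -1.5 to 1.5. Red marks genes called higher, blue genes called lower and gray no call: *Sod3* stands at 6.69, *Sod2* at 1.13 and *Gclm* at -1.04, and *Nfe2l2* and *Keap1*, at 0.28 and 0.14 with TMM, turn negative with spike-in scaling.

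The 3 superoxide dismutases went different ways. *Sod1* (ENSMUSG00000022982.10, chromosome 16 from 90220754 to 90226329, plus strand), the cytosolic copper and zinc enzyme, fell from 171, 172 and 163 CPM to 97.9, 106 and 99.5 CPM. Every D5 library was well below every D0 library. The means were 169 ± 5.18 and 101 ± 4.21 CPM (n = 3 each, SD), so that D5 had 59.9% of the D0 level. Its log2 fold change was -0.74 (SE 0.036, adjusted p = 8.2e-18 in edgeR's test) and -1.28 with spike-in scaling (adjusted p = 0.043). Of the 50-base stretches in its transcripts, 3.42% also occur in *Gm8566*.

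*Sod2* (ENSMUSG00000006818.5, chromosome 17 from 13006846 to 13040063, plus strand), the manganese enzyme of the mitochondrial matrix, rose. It was at 62.9, 60.2 and 59.9 CPM in the D0 libraries and 138, 135 and 129 CPM in the D5 libraries. The lowest D5 library was at more than double the highest D0 library. Its mean of 134 ± 4.83 CPM at D5 was 2.19 times the 61.0 ± 1.66 CPM at D0 (n = 3 each, SD), a log2 fold change of 1.13 (SE 0.037, adjusted p = 2.2e-22 in edgeR's test). The counts of *Sod2* were 0.362 ± 0.011 times those of *Sod1* at D0 and 1.32 ± 0.076 times at D5 (n = 3 each, SD), a ratio that no scaling of the libraries can move. With spike-in scaling the call for *Sod2* alone was lost (0.58, adjusted p = 0.40), and the D5 libraries spread from 58.5 to 180 CPM on that scale. In addition, 21.0% of its 50-base stretches occur in other genes, mainly *AC166110.4* and *Rps6ka2*, so its counts depend on how reads with several matches were treated.

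*Sod3* (ENSMUSG00000072941.5, chromosome 5 from 52363791 to 52371418, plus strand), the secreted enzyme that binds to the cell surface and matrix, was close to absent in myoblasts. It was counted 21, 17 and 23 times at D0 and 1326, 1179 and 1462 times at D5. In CPM these are 0.561, 0.404 and 0.571 at D0 and 52.8, 47.8 and 58.8 at D5. All D0 libraries were above the limit of 3 counts that was taken as not detected, and no D0 library came near any D5 library. The mean moved from 0.512 ± 0.0934 to 53.1 ± 5.47 CPM (n = 3 each, SD), a 104-fold rise with a 95% interval from 88.6 to 121. Its log2 fold change was 6.69 (SE 0.11, adjusted p = 2.6e-30 in edgeR's test), and 363 of the genes tested (2.23%) had a larger rise. Without single libraries it ran from 6.53 to 6.77, and spike-in scaling gave 6.07 (adjusted p = 2.7e-18). Markers of fibroblasts moved the same way. Of 4 such markers (*Pdgfra*, *Ly6a*, *Dcn* and *Cd34*) 3 were called higher and none lower, and their summed level was 36.7 to 39.7 CPM at D0 and 335 to 374 CPM at D5. *Dcn*, which encodes the matrix proteoglycan decorin, went from 0.375 ± 0.105 to 242 ± 19.1 CPM (n = 3 each, SD). The part of such cells in the level of *Sod3* was not tested.

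Markers of adipocytes, macrophages, endothelium and smooth muscle were near 0 or not called higher at D5. The adipocyte markers *Adipoq*, *Plin1* and *Lep* had at most 3 counts in any library, as did *Adgre1* and *Ptprc* of the 6 macrophage markers and *Cdh5* of the 4 endothelial markers. The summed macrophage markers were 8.09 to 8.15 CPM at D0 and 6.73 to 7.87 CPM at D5, with 1 of the 2 that were tested called lower. Endothelial markers, 2 of 2 tested called lower, summed to 3.31 to 3.59 CPM at D0 and 0.518 to 0.884 CPM at D5. Both tested smooth muscle markers were lower (summed 2946 to 3061 CPM against 960 to 1087 CPM). The hemoglobin gene *Hba-a1*, listed for red cells, was called higher at a very low level, with 10, 14 and 9 counts at D0 and 18, 15 and 15 at D5 (2.32-fold, adjusted p = 0.0011 in edgeR's test), and *Hbb-bs* had 0 counts in every library.

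*Cat* (ENSMUSG00000027187.10, chromosome 2 from 103453849 to 103485160, minus strand), which encodes catalase, was at 71.9, 70.9 and 68.6 CPM at D0 and 51.8, 55.6 and 54.9 CPM at D5. The groups did not overlap, and D5 had 76.7% of the D0 level (95% interval 72.5% to 81.3%). The log2 fold change was -0.38 (SE 0.040, adjusted p = 6.2e-10 in edgeR's test). It was -0.94 with spike-in scaling, where the call was lost (adjusted p = 0.15).

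To compare levels between genes, counts were divided by exonic length and given as TPM, transcripts per 1000000 transcripts. At D0 *Sod1* was the most abundant of the 10, with 147 TPM, followed by *Cat* (93.3 TPM), *Nfe2l2* (79.0 TPM), *Hmox1* (70.8 TPM), *Gclc* (50.1 TPM), *Keap1* (36.2 TPM), *Sod2* (21.1 TPM), *Gclm* (20.5 TPM), *Nqo1* (6.48 TPM) and *Sod3* (0.474 TPM). Only *Sod2* and *Gclm* overlapped between libraries among neighbours in this order. At D5 the order was *Nfe2l2* (86.1 TPM), *Sod1* (78.9 TPM), *Cat* (64.2 TPM), *Hmox1* (61.0 TPM), *Sod3* (44.1 TPM), *Sod2* (41.4 TPM), *Keap1* (35.7 TPM), *Gclc* (24.1 TPM), *Gclm* (8.92 TPM) and *Nqo1* (5.38 TPM). Here *Sod3* and *Sod2* overlapped, and the other neighbours did not. By this length *Sod3* moved from the last place to the fifth, and *Gclc* and *Gclm* moved down. With the median transcript as length, *Sod1* stayed first at D5 (295 TPM, with *Nfe2l2* next at 79.6 TPM) and *Sod3* took the seventh place at 26.6 TPM. With either length the mean TPM of *Keap1* was slightly lower at D5 than at D0, the opposite of the CPM scale. With all exons as length, *Hmox1* was at 74.1, 69.5 and 68.9 TPM at D0 and 61.6, 60.5 and 61.0 TPM at D5. These *Hmox1* values did not overlap between groups, unlike those in CPM, and differences in TPM were not tested.

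On the TPM scale the 3 dismutases together changed little while their mixture changed strongly, but this depends on the length given to *Sod1*. With the length of all exons, the sum was 168 ± 3.24 TPM at D0 and 164 ± 2.77 TPM at D5 (n = 3 each, SD). *Sod1* made up 87.2% of it at D0 and 48.0% at D5, *Sod2* 12.5% and 25.2%, and *Sod3* 0.282% and 26.8%. The exons of *Sod1* in the annotation cover 3970 bases, whereas its median transcript has 641 bases. With median transcript lengths, tried only after seeing the values, the sum was 577 ± 12.8 TPM at D0 and 364 ± 6.78 TPM at D5 (n = 3 each, SD). *Sod1* then held 96.1% at D0 and 81.0% at D5, *Sod2* 3.80% and 11.7%, and *Sod3* 0.0502% and 7.31%. With either length the share of *Sod1* was lower in all D5 libraries than in all D0 libraries, and the shares of *Sod2* and *Sod3* were higher. Between the lengths tried, the drop of the sum from 577 to 364 TPM appeared only with median transcript lengths. The sum was not computed with TMM or spike-in scaling.

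**Figure D3:**
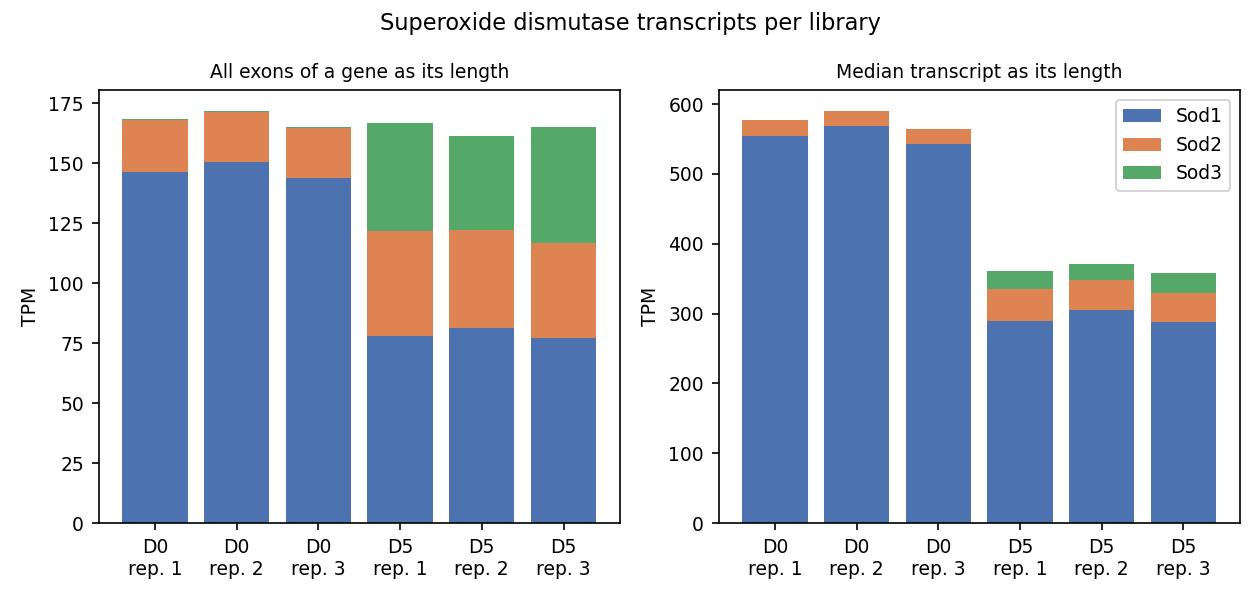
TPM of *Sod1* (blue), *Sod2* (orange) and *Sod3* (green) stacked for each of the 6 libraries, with gene length taken as all exons (left) or as the median transcript (right); both axes start at 0. *Sod3* is visible only at D5, and the stacks are of similar height between groups on the left (means 168 and 164 TPM) but not on the right (577 and 364 TPM).

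The partners of Nrf2 and the rest of the redox genes were described from 7 lists of 95 distinct genes that do not include the 10. Of these, 87 were tested, 51 were called higher, 29 lower and 7 not, with a median log2 fold change of 0.36. The lists overlap, and a shared gene is counted in each of its lists. *Txnrd1* and *Srxn1*, for instance, stand among the other Nrf2 targets and the thioredoxin and peroxiredoxin genes. Among 11 tested partners and regulators of Nrf2, 7 were higher and 4 lower, with a median of 0.10. *Nfe2l1*, a relative of Nrf2 that drives proteasome genes and also binds antioxidant response elements, stood out with 352 ± 16.0 CPM at D0 and 1170 ± 28.4 CPM at D5 (n = 3 each, SD; log2 fold change 1.73). The small Maf genes *Mafk* (0.94) and *Maff* (0.51) and the ubiquitin ligase gene *Btrc* (0.66) were also higher with TMM scaling. With spike-in scaling no gene of this list was called: *Nfe2l1* was at 1.16 (adjusted p = 0.067), *Mafk* at 0.37 (0.61), *Btrc* at 0.090 (0.91) and *Maff* at -0.081 (0.92). *Nfe2l3* had at most 3 counts in any library and was not tested.

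Of 22 other known Nrf2 targets that were tested, 8 were higher, 12 lower and 2 not called, with a median of -0.39 beside 0.0022 for all genes. At least 2-fold, 4 were higher and 7 lower, beside 19.3% of all genes tested that passed upward and 16.0% downward. *Slc7a11*, the cystine transporter that feeds glutathione synthesis, had 427, 435 and 407 counts at D0 and 53, 46 and 37 at D5, a log2 fold change of -2.54. *G6pdx*, which supplies NADPH from glucose 6-phosphate, went from 64.1 ± 1.14 to 19.4 ± 1.66 CPM (n = 3 each, SD; -1.73), although 16.9% of its 50-base stretches are shared with other genes. *Ephx1*, an epoxide hydrolase, was higher at 67.0 CPM against 20.3 CPM (1.72), and so was *Aox1*, an aldehyde oxidase (1.84). With spike-in scaling 0 of these targets were called higher and 9 lower. Over all 16290 genes tested, that scaling called 1813 higher and 3747 lower. *Slc7a11* and *G6pdx* kept their calls, while *Ephx1* (1.16, adjusted p = 0.073) and *Aox1* (1.26, adjusted p = 0.051) lost theirs.

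Among the genes of glutathione synthesis, supply, use and recycling other than *Gclc* and *Gclm*, 15 of 23 tested were higher, 5 lower and 3 not called, with a median of 0.63. With spike-in scaling 6 were called higher and 3 lower, and *Gpx3*, *Mgst1* and *Oplah* kept their calls. *Gpx3*, the secreted glutathione peroxidase, had 46, 44 and 40 counts at D0 and 1390, 1214 and 1427 at D5 (log2 fold change 5.63). *Mgst1*, a membrane-bound glutathione transferase, had 4 counts in each D0 library and 258, 205 and 176 at D5 (6.36). *Oplah*, the 5-oxoprolinase of glutathione turnover, was also higher (2.73). *Gss*, which carries out the step after glutamate-cysteine ligase, was singled out after its values were seen. With TMM scaling it rose from 29.2 ± 0.894 to 74.9 ± 0.736 CPM (n = 3 each, SD, log2 fold change 1.36, adjusted p = 4.1e-23 in edgeR's test), opposite to *Gclc* and *Gclm*. Its value with spike-in scaling is not given here. Genes on the opposite strand cover 15.4% of its exonic length, so its reads may be mixed with theirs.

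Among 16 thioredoxin and peroxiredoxin genes, 9 were higher and 7 lower, with a median of 0.26. *Txnrd1*, the cytosolic thioredoxin reductase, fell from 390 ± 7.23 to 122 ± 5.65 CPM (n = 3 each, SD; -1.68), and *Srxn1*, which repairs overoxidised peroxiredoxins, from 61.3 to 19.3 CPM (-1.67). *Txnip*, an inhibitor of thioredoxin, rose from 35.2 to 171 CPM (2.28), with an antisense gene over 19.4% of its exons, and the sestrin gene *Sesn1* from 18.6 to 50.5 CPM (1.44). Spike-in scaling left 1 of these genes higher, *Txnip*, and 5 lower, *Txnrd1* and *Srxn1* among them, and *Sesn1* lost its call (0.90, adjusted p = 0.17). Of 15 heme and iron genes, which stand around *Hmox1*, 9 were higher and 6 lower, with a median of 0.68. *Fth1*, the ferritin heavy chain, was at 492 ± 14.2 CPM at D0 and 1614 ± 120 CPM at D5 (n = 3 each, SD; 1.71), and the transferrin receptor gene *Tfrc* (1.19) and *Uros* of heme synthesis (1.07) were higher as well. *Ftl1*, the ferritin light chain, was lower (-1.19), but 58.4% of its 50-base stretches occur in other genes, so that its counts are uncertain. It was the 1 gene of this list still called with spike-in scaling, where *Fth1* was at 1.14 (adjusted p = 0.071), *Tfrc* at 0.65 (0.33) and *Uros* at 0.51 (0.47).

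Of 9 genes listed as sources of superoxide or hydrogen peroxide, 5 were tested, 3 of them higher and 2 lower. *Xdh*, xanthine dehydrogenase, rose from 5.87 to 28.5 CPM (2.28) and *Nox4* from 8.53 to 14.8 CPM (0.79), whereas *Duox1* (-1.80) and *Duox2* (-0.82) fell. Of these, *Nox4* lost its call with spike-in scaling (0.26, adjusted p = 0.72). *Cyba* and *Cybb*, the membrane subunits of the phagocyte oxidase, had at most 3 counts in any library. Genes that load or import the antioxidant enzymes were higher or showed no call: 3 of 6 were higher, namely *Ccs*, the copper chaperone of SOD1 (14.4 to 22.4 CPM, 0.64), *Pex5*, the import receptor of peroxisomal enzymes including catalase (47.1 to 74.6 CPM, 0.67), and the copper transporter gene *Atp7a* (0.23). With spike-in scaling none of the 6 was called, with *Ccs* at 0.077 (adjusted p = 0.92), *Pex5* at 0.10 (adjusted p = 0.90) and *Atp7a* at -0.33 (adjusted p = 0.64). Over the 7 lists that scaling left 9 of the 87 tested genes called higher and 14 lower, and 17 changed sign. All calls in these lists passed edgeR's quasi-likelihood test with an adjusted p under the threshold of 0.05. With TMM scaling each list is to be read beside the 42.2% of all genes tested that were called higher and the 40.8% called lower. With spike-in scaling it is to be read beside the 1813 genes called higher and the 3747 called lower of 16290.

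**Figure D4:**
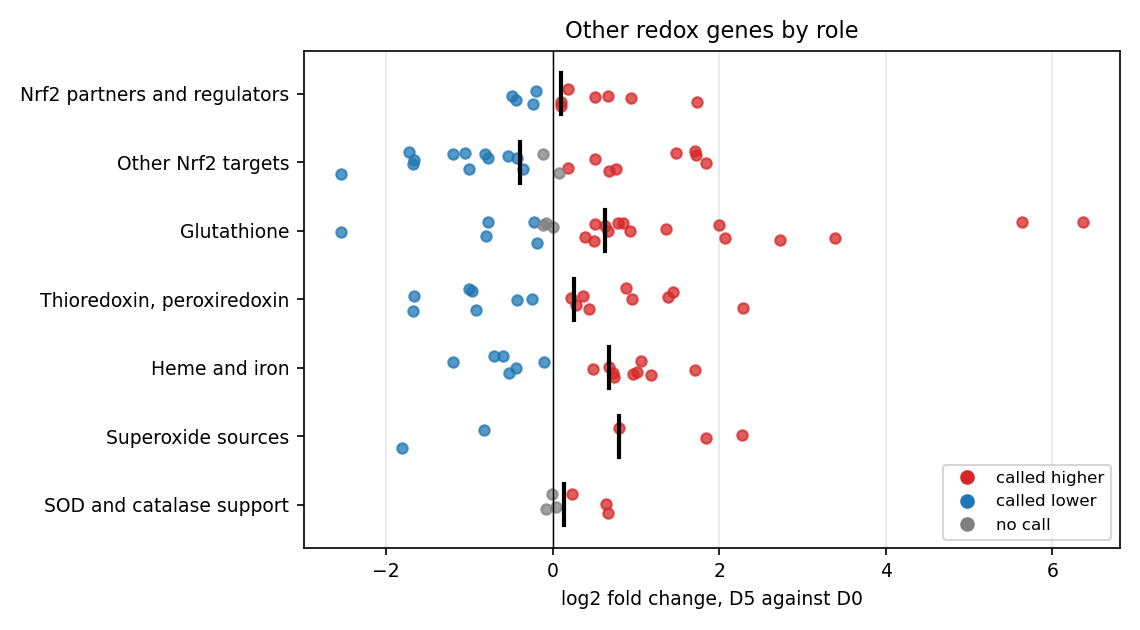
Log2 fold change of D5 against D0, with TMM scaling, for the tested genes of the 7 lists of other redox genes. Each point is 1 gene of 1 list, so a gene shared between lists is drawn in each. Red marks genes called higher, blue genes called lower and gray no call, and black bars are list medians. The lowest median is that of other Nrf2 targets (-0.39); that of glutathione genes is 0.63, and with spike-in scaling, not drawn here, 17 of the 87 genes change sign.

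Scaling bears on some of the 10 genes more than on others. TMM, upper-quartile factors and DESeq2 called the same directions for the 8 genes called and left *Hmox1* and *Nqo1* without a call. With spike-in scaling 4 of the 10 were called, *Sod3* as higher and *Gclc*, *Gclm* and *Sod1* as lower. The median of all genes was then -0.58, and 5560 genes were called (1813 higher and 3747 lower) in place of 13510.

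**Figure D5:**
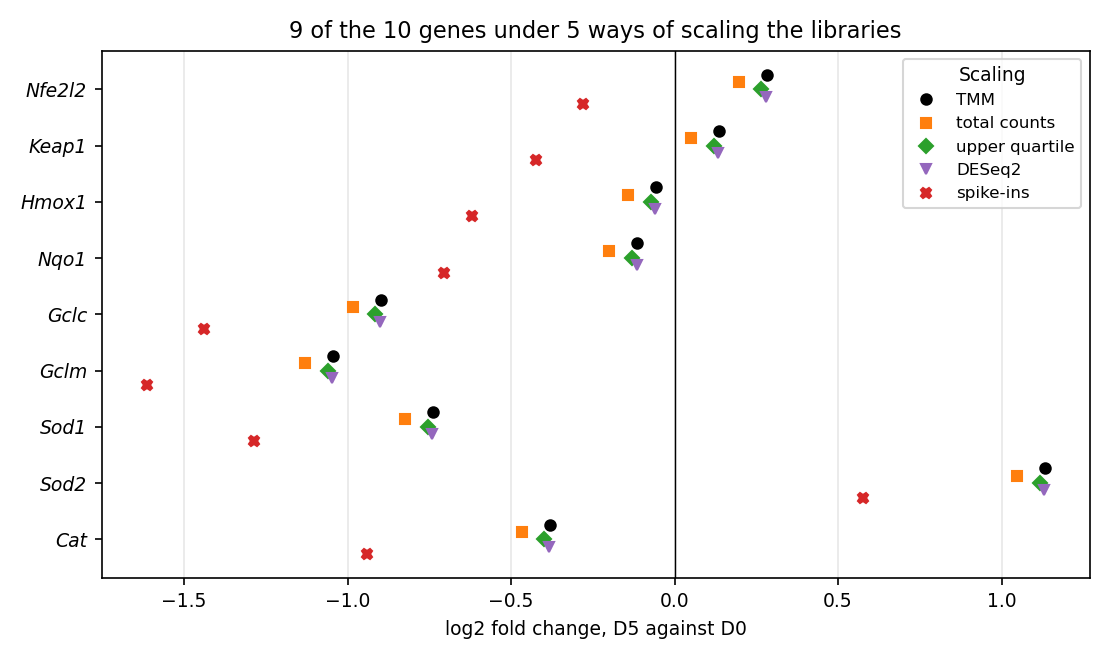
Log2 fold change of D5 against D0 for 9 of the 10 genes (*Sod3*, at 6.07 to 6.70, is left out to keep the axis readable) under 5 ways of scaling the libraries, each with its own marker. Crosses, the spike-in values, lie to the left of the other markers for every gene; *Nfe2l2* and *Keap1* pass to the other side of 0, at -0.28 and -0.42.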

How the data were processed

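RNA-seq was performed on 3 D0 and 3 D5 libraries of C2C12 cells. The authors counted reads per gene with featureCounts on GRCm38 (mm10) and deposited whole-number counts without normalization, 1 table per library. The labels name Tophat2 as the aligner and the study's methods name HISAT2; the annotation release, the strand setting and the handling of reads with several matches are not given in the sources used here. A row without a gene name, equal to the total of its column (50% of the column), and 92 ERCC rows entered neither library sizes nor tests. The chi-square of replicate pairs, 2.28 to 3.71 per degree of freedom, exceeded sampling noise, which does not show whether the libraries are separate cultures. Each library was counted as 1 sample.

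From the deposited counts, edgeR 4.0.16 (R 4.3.3) gave TMM factors, CPM and quasi-likelihood tests after filterByExpr, on group only, with Benjamini-Hochberg adjustment over 16290 genes. SE and 95% intervals come from the test's F statistic. TPM used the exonic length of GENCODE vM21, which held 99.9% of the gene identifiers. Alternatives were DESeq2 1.42.0, upper-quartile, total-count and ERCC scaling, no filter, a minimum of 10 counts per library, leaving out single libraries, and the replicate number as a block. Scripts were first tested on simulated counts. From each pathway list, up to 4 called genes with the largest absolute log2 fold change are named, if their mean reached 100 counts in a group. The 10 genes, the lists and the markers were chosen with earlier results of these data known. A gene with 3 counts or fewer was taken as not detected, a limit that covers counting error only. With 3 libraries a group, no search for outlying libraries was made. A further marker gene is not reported here.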

Additional observations from a re-analysis of the deposited data

Results flagged for a closer look

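The ERCC spike-ins, which enter no comparison of the 10 genes except as an alternative scaling, took a larger share of counts in D5 replicate 1 (1.20%) and D5 replicate 3 (2.09%) than in any D0 library (0.859% at most). D5 replicate 2 was at 0.720%. The highest share was 2.94 times the lowest at D5 and 1.18 times at D0. On the spike-in scale *Cat* was at 41.4, 74.2 and 25.0 CPM in D5 replicates 1, 2 and 3, where TMM scaling gave 51.8, 55.6 and 54.9 CPM. The cause of the unequal shares was not tested.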

How the results depend on the processing

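Of 746 values recomputed under an alternative, 699 kept their direction and call or stayed within their limits. ERCC scaling changed most. It reversed the signs of *Nfe2l2* (-0.28), *Keap1* (-0.42), *Maff* (-0.081) and *Atp7a* (-0.33), and the calls of *Sod2* (0.58) and *Cat* (-0.94) were lost. With it 1 of the 10 genes was called higher, and over all genes 5560 were called, 1813 higher and 3747 lower, so that 67.4% of calls were lower against 49.2% with TMM. In the lists it left 0 higher and 0 lower among partners and regulators, 0 higher among other targets, 6 higher and 3 lower among glutathione genes, 1 higher among thioredoxin genes, 0 higher and 1 lower among heme and iron genes, and 0 higher among genes that load or import the enzymes. *Keap1* lost its call with total counts (0.051), with no filter (0.083) and without D0 replicate 3, its values without single libraries running from 0.099 to 0.15. Total counts brought *Hmox1* past the threshold (-0.14). Upper-quartile factors, total counts, no filter and leaving out D0 replicate 3 each called 1 gene of the loading and import list lower, where TMM called 0, and leaving out the other libraries called 0. Median transcript length as gene length, chosen after the data were seen, moved the summed TPM of the dismutases to 577 at D0 and 364 at D5, with *Sod1* at 96.1% and 81.0%, *Sod2* at 3.80% and 11.7% and *Sod3* at 0.0502% and 7.31%. The cause of these changes was not tested.

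Whether replicate numbers pair the samples is not settled. Same-numbered D0 and D5 libraries had small correlations of their deviations, 0.033, 0.064 and 0.028, although each library correlated best with its own number. With the replicate block 13558 genes were called in place of 13510, and 8 of the 10 genes. Depth limits *Nqo1*, with 61 to 139 counts in a library.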
